A study of Mus musculus with 6 samples.

Results

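A group of 9 genes that mark resting, or homeostatic, microglia were followed in mouse optic nerve: P2ry12, Csf1r, Cx3cr1, Gpr34, Siglech, Selplg, Tmem119, Olfml3 and Sall1. They were taken by symbol from a named list, and all 9 were found among the 52636 genes of the deposited table. The study named its tested libraries hND6, after a mutant human ND6 (the T14484C form), and its other libraries mCherry, after a red fluorescent protein, with 3 libraries each. ND6 belongs to respiratory complex I, and its native gene lies in mitochondrial DNA. Per the labels, eyes of the mice were injected with a lentivirus that carried the mutant human gene. The T14484C form is named in the treatment label of the hND6 libraries and not in that of the mCherry libraries. The text on the injection stands beside both groups, so what the mCherry group received is not stated beyond its label. Strain, age, the time after injection and whether each library was a separate animal are not given in the labels either, so the spread that p-values rest on is that of these libraries and may be technical in part.

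Microglia are the resident macrophages of the central nervous system, and in the optic nerve they lie among myelinated axons, oligodendrocytes and astrocytes. Signals through the CSF1 receptor keep them alive, and TGF-beta signalling together with the transcription factor Sall1 maintains their resting program. P2ry12, Tmem119 and Cx3cr1 are typically reduced when mouse microglia turn to a disease-associated state, in which genes such as Cst7, Itgax and Spp1 are induced. In bulk RNA, a different number of microglia and a different amount of a transcript per microglial cell cannot be told apart.

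The libraries were ribosomal-RNA-depleted, stranded total RNA, and expression is given in FPKM, which corrects the fragments of a gene for the length of its exons and for the size of the library. Reads assigned to genes came to between 20253600 and 34758900 per library. Each member had between 244 and 8126 reads in a library, for which counting alone gives a standard deviation of 6.4% and 1.11% of the value. Myelin and astrocyte genes were abundant, with Mbp at 2880 ± 206 FPKM in hND6 libraries, against 2436 ± 536 FPKM in mCherry libraries and Gfap at 1474 ± 177 FPKM in hND6 libraries, against 1130 ± 193 FPKM in mCherry libraries (SD, n = 3 each). These genes go with the tissue label but cannot tell optic nerve from other myelinated tissue of the central nervous system. Library mCherry 3 stood apart on the first principal component, which held 46.9% of the variance. It carried transcripts of forebrain neurons (summed level of the 10 listed genes 673 FPKM). These genes summed to 240 FPKM in hND6 1 and to between 31.2 and 65.9 FPKM in the remaining libraries. Photoreceptor genes summed to 208 FPKM in hND6 2 and to at most 6.57 FPKM elsewhere. By Xist and Y-linked genes, mCherry 1, mCherry 3 and hND6 3 read as female, and mCherry 2, hND6 1 and hND6 2 as male. Both sexes thus stood in both groups but were not balanced between them.

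All 9 members were detected in every library, at 4.54 FPKM or more. All 9 averaged higher in hND6, by a log2 fold change of 0.26 to 0.56 with a median of 0.43, beside a median of -0.01 over the 16157 genes tested. None of the 9 passed the adjusted threshold of 0.05 in limma's moderated test on log2(FPKM + 0.5), in which 7 genes (0.0433%) passed as higher and none in the opposite direction. At an unadjusted p under 0.05 the test gave 6 of the 9 as higher, beside 9.11% of all tested genes as higher and 6.05% as lower. With libraries scaled to a constant sum (TPM scale) 3 of the 9 lay under the unadjusted level, and the split of all tested genes turned to 544 higher and 2185 lower, beside 1472 higher and 978 lower in FPKM. With limma's voom on reads recovered from the values, 0 of the 9 passed and again 6 lay under the unadjusted level. For the same 6 genes (P2ry12, Siglech, Tmem119, Olfml3, Selplg and Csf1r) every hND6 library lay above every mCherry library, beside 12.6% of all tested genes that did so and 10.2% with every hND6 library below. Of all tested genes 48.6% had a log2 fold change above 0.

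**Figure D1:**
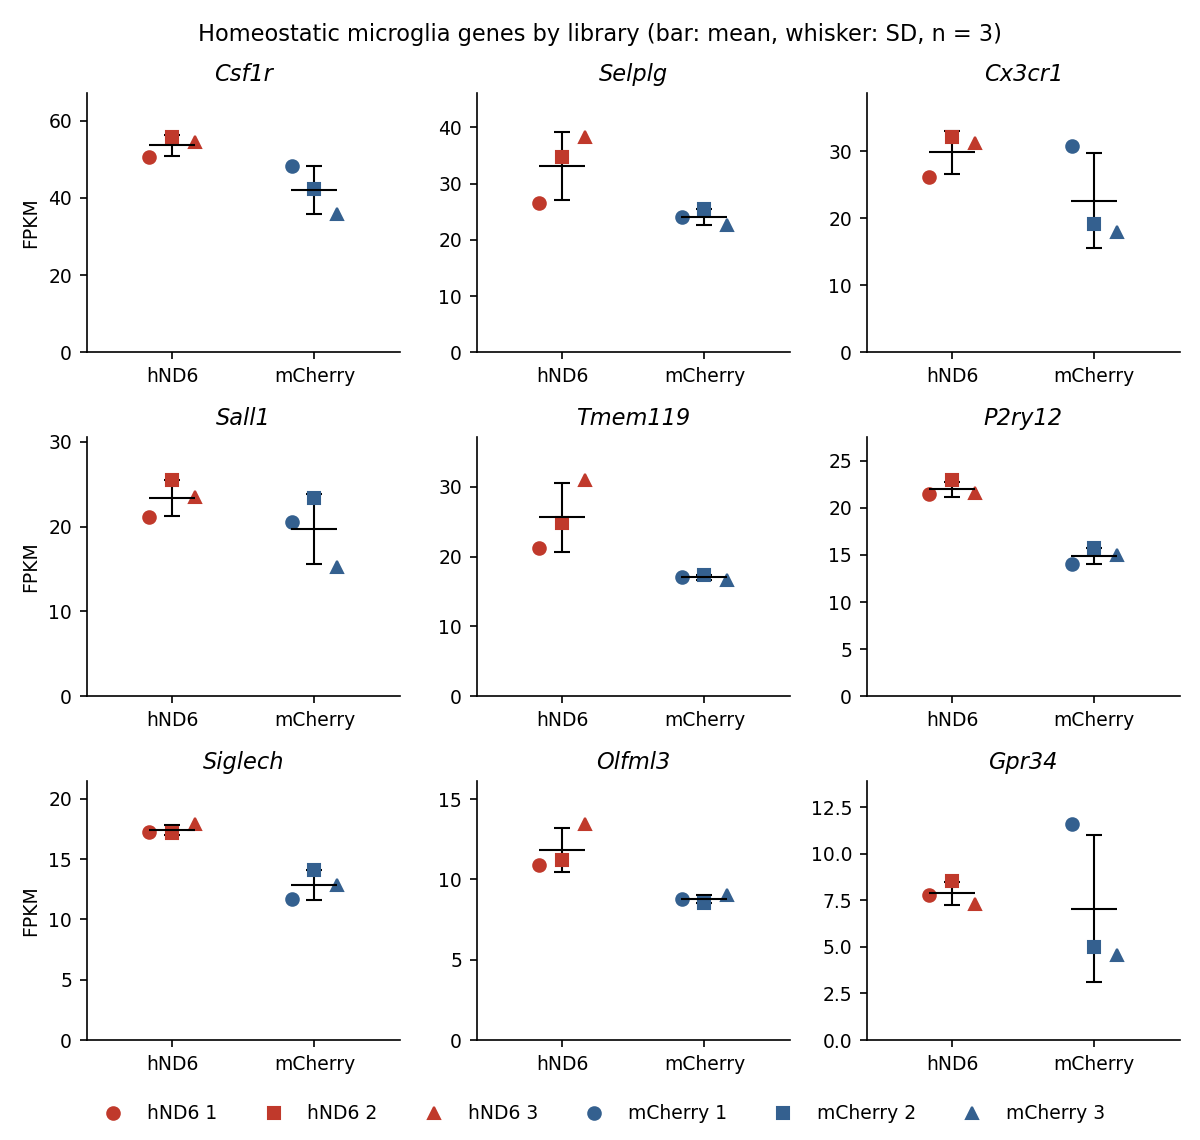
FPKM of each of the 9 genes (vertical axis, from 0) in the 3 hND6 and 3 mCherry libraries, with the mean and SD of each group; panels run from the most to the least abundant gene. P2ry12, Siglech, Tmem119, Olfml3, Selplg and Csf1r show no overlap between the groups, while for Cx3cr1, Gpr34 and Sall1 at least 1 mCherry library reaches into or above the hND6 range.

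Promoter sequence is shown for P2ry12, Siglech and Olfml3, the members without overlap between groups that had an entry in the RefSeq promoter table (GRCm38.p6), since these genes lay higher together. The table held 5 of the 9 members, with 3 alternative windows for Sall1 and 7 windows in all; Csf1r, Gpr34, Selplg and Tmem119 had no entry. Each window runs from 250 bases before to 50 bases after a start site, 5′ to 3′ on the strand of the gene. Capitals mark the ETS core GGAAGT and the PU.1 core GAGGAA, on either strand. PU.1 is the ETS-family transcription factor of macrophages, encoded by Spi1. 
P2ry12 (chr3:59262936-59263235, minus strand): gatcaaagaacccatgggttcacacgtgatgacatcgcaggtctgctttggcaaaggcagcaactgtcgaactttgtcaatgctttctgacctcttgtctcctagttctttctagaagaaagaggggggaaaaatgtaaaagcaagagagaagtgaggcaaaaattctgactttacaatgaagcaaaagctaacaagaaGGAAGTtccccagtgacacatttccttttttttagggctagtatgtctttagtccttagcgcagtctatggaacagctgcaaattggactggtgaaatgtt
Siglech (chr7:55767934-55768233, plus strand): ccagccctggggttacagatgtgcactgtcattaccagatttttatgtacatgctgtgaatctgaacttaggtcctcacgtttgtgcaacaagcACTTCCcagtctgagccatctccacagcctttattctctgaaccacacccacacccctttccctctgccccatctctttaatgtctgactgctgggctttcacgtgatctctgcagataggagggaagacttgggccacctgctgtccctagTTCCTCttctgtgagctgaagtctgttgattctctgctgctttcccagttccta
Olfml3 (chr3:103737952-103738251, minus strand): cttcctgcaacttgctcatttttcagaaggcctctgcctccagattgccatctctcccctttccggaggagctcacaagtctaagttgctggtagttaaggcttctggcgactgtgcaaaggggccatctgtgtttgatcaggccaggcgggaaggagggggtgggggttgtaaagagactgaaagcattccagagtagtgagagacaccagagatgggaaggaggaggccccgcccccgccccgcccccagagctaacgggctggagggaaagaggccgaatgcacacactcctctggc
The start site of the P2ry12 window lies 35404 bases upstream of the gene start in the deposited table, that of Siglech 42 bases upstream, and that of Olfml3 at the deposited start.

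Counted from the start site, the P2ry12 window held the ETS core once, beginning at -51. The Siglech window held it once on the opposite strand, at -156, and a PU.1 core at -4, also on the opposite strand. The Olfml3 window held neither. Over the 7 member windows the ETS core occurred in 3 and the PU.1 core in 1, beside 23.8% and 28.3% of all 32851 windows of 300 bases. The palindromic SMAD box GTCTAGAC and the TATA box TATAAA occurred in no member window and in 0.213% and 13.6% of all windows. The E-box CANNTG occurred in 4 of the 7 and in 72.3% of all. Both strands were searched, and the ETS and PU.1 cores can overlap by 4 letters. These are matches of letters and say nothing of binding.

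Among the receptors, P2ry12 had a narrow spread in both groups. P2ry12 (chr3:59216272-59227581, minus strand in the deposited mm10 table) encodes the ADP receptor that steers microglial processes towards injury. It stood at 21.4, 22.9 and 21.5 FPKM in hND6 1 to 3, against 14.0, 15.7 and 14.996 FPKM in mCherry 1 to 3. All 3 hND6 values lay within a narrow band above all 3 mCherry values. The means were 21.96 ± 0.822 FPKM in hND6 libraries, against 14.9 ± 0.834 FPKM in mCherry libraries (SD, n = 3 each). On the log2 scale the difference was 0.54 ± 0.08 (SE; limma adjusted p = 0.143). P2ry12 held rank 32 by p among all tested genes, and 4.23% of them had a larger fold change. The gene lies within Med12l on the opposite strand. Med12l averaged 3.81 FPKM in hND6 and 5.04 FPKM in mCherry. No source used here states that counting used the strand, so reads of the pair cannot be told apart with certainty.

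Siglech (chr7:55768226-55778833, plus strand), a sialic acid-binding lectin of microglia and plasmacytoid dendritic cells, behaved much like P2ry12. It stood at 17.2, 17.1 and 17.9 FPKM in hND6 1 to 3, against 11.7, 14.1 and 12.8 FPKM in mCherry 1 to 3. Its log2 fold change was 0.43 ± 0.09 (SE; limma adjusted p = 0.177). The lowest Siglech value was that of mCherry 1, as it was for P2ry12.

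Csf1r (chr18:61105852-61132149, plus strand) encodes the receptor for CSF1 and IL-34, on which microglial survival depends, and is shared with other macrophages. It was the most abundant member in all 6 libraries, at 50.5, 55.8 and 54.3 FPKM in hND6 1 to 3, against 48.2, 42.3 and 35.7 FPKM in mCherry 1 to 3. The groups did not overlap, although mCherry 1 came within a few FPKM of hND6 1. Csf1r had a log2 change of 0.35 ± 0.12 (SE; limma adjusted p = 0.270).

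Cx3cr1 (chr9:120048683-120069879, minus strand), the receptor for the neuronal chemokine fractalkine, stood at 26.2, 32.1 and 31.2 FPKM in hND6 1 to 3, against 30.7, 19.1 and 17.97 FPKM in mCherry 1 to 3. Here the groups overlapped, since mCherry 1 lay above hND6 1 while the other 2 mCherry libraries lay below every hND6 library. The log2 estimate was 0.43 ± 0.21 (SE; limma adjusted p = 0.391), 0.67 without mCherry 1 and 0.29 without mCherry 3.

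Gpr34 (chrX:13632089-13640856, plus strand), a receptor for lysophosphatidylserine, was the least abundant member on average and had the widest spread between libraries on the log2 scale. It stood at 7.78, 8.55 and 7.29 FPKM in hND6 1 to 3, against 11.6, 5.01 and 4.54 FPKM in mCherry 1 to 3. The mCherry 1 value exceeded every other library, and the other 2 mCherry values were the lowest of all. It had a log2 change of 0.27 ± 0.33 (SE; limma adjusted p = 0.741), 0.66 without mCherry 1 and 0.03 without mCherry 3. Gpr34 lies within Cask on the opposite strand, and Cask averaged 14.3 FPKM in hND6 and 16.2 FPKM in mCherry.

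Of the surface proteins, Tmem119 (chr5:113793729-113800516, minus strand), a transmembrane protein widely used to tell microglia from blood-derived macrophages, had a fold change close to that of P2ry12. It stood at 21.2, 24.8 and 30.9 FPKM in hND6 1 to 3, against 17.1, 17.4 and 16.6 FPKM in mCherry 1 to 3. The mCherry libraries were nearly level, while the hND6 libraries spread widely above them with hND6 3 highest. The means were 25.6 ± 4.92 FPKM in hND6 libraries, against 17.0 ± 0.383 FPKM in mCherry libraries (SD, n = 3 each). On the log2 scale the difference was 0.56 ± 0.14 (SE; limma adjusted p = 0.199).

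Selplg (chr5:113818547-113830501, minus strand) encodes PSGL-1, a glycoprotein ligand of P-selectin that other leukocytes carry too. It stood at 26.6, 34.7 and 38.3 FPKM in hND6 1 to 3, against 23.99, 25.4 and 22.7 FPKM in mCherry 1 to 3. The groups did not overlap, but hND6 1 lay only just above mCherry 2. Its log2 fold change was 0.44 ± 0.14 (SE; limma adjusted p = 0.256).

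The secreted olfactomedin-like protein gene Olfml3 (chr3:103731665-103738001, minus strand) stood at 10.9, 11.2 and 13.4 FPKM in hND6 1 to 3, against 8.79, 8.55 and 9.03 FPKM in mCherry 1 to 3. As for Tmem119, the mCherry libraries lay close together and hND6 3 was highest. It had a log2 change of 0.40 ± 0.11 (SE; limma adjusted p = 0.202).

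Sall1 (chr8:89027235-89044162, minus strand), a zinc finger transcription factor that sustains microglial identity, had the smallest log2 fold change in limma, next to that of Gpr34. Which of these genes was smaller changed with the setting. Gpr34 was smaller with library weights (0.15 for Gpr34, 0.19 for Sall1) and without mCherry 2 (0.10 and 0.39), among others. Without mCherry 1 Sall1 was smaller (0.66 for Gpr34, 0.29 for Sall1). Sall1 stood at 21.2, 25.4 and 23.5 FPKM in hND6 1 to 3, against 20.5, 23.4 and 15.3 FPKM in mCherry 1 to 3. The groups overlapped through mCherry 2, and mCherry 3 was lowest. The log2 estimate was 0.26 ± 0.16 (SE; limma adjusted p = 0.506), and 0.09 without mCherry 3.

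**Figure D2:**
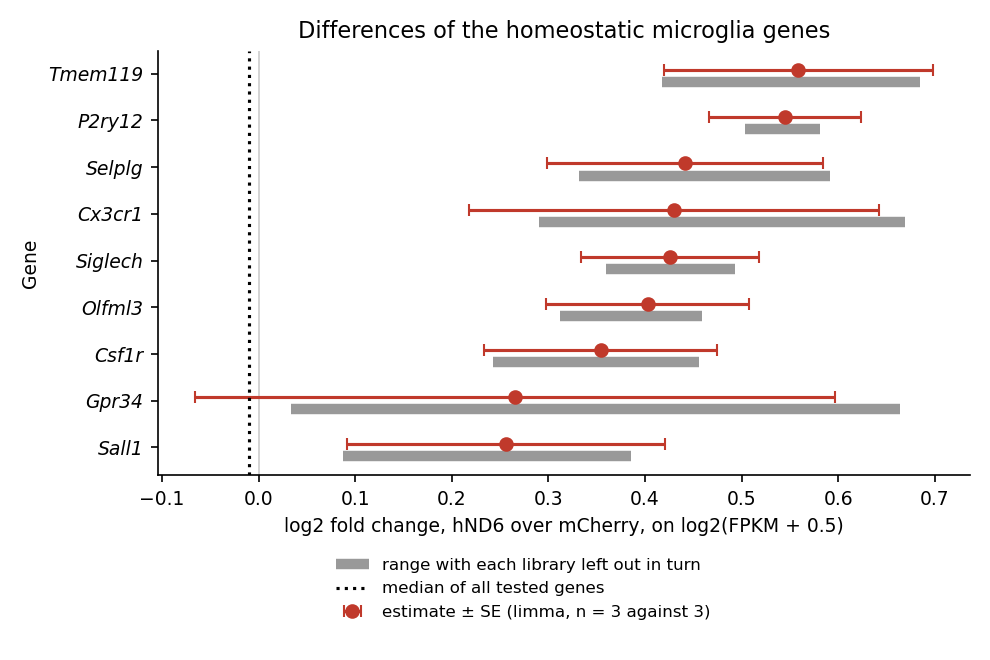
Log2 fold change of hND6 over mCherry on the log2(FPKM + 0.5) scale for each gene (points, with SE from limma), with the range of estimates when each of the 6 libraries is left out in turn (grey bars) and the median of all tested genes at -0.01 (dotted). Estimates run from 0.26 for Sall1 to 0.56 for Tmem119, and the grey bar of Gpr34 is the widest, from 0.03 to 0.66.

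By FPKM, which is scaled by exon length, the order over the 6 libraries ran Csf1r, Selplg, Cx3cr1, Sall1, Tmem119, P2ry12, Siglech, Olfml3 and Gpr34. Csf1r lay above Selplg, P2ry12 above Siglech and Siglech above Olfml3 in 6 of 6 libraries. Sall1 and Tmem119 exchanged places, with Sall1 above in 3 of the 6, and the remaining neighbours held their order in 5 of the 6. The lowest rank passed from Gpr34 to Olfml3 in mCherry 1 alone. Summed over the 9 members the level was 203, 233 and 238 FPKM in hND6 1 to 3, against 187, 171 and 150 FPKM in mCherry 1 to 3. The sums of the groups did not overlap. Nor did the summed FPKM of all genes, at 417385 to 450685 in hND6, against 365375 to 411248 in mCherry, so such a separation is not particular to the members.

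The members did not all vary together. Over the 6 libraries the Pearson correlation between pairs of members, given as a description, had a median of 0.72 over 36 pairs. It was 0.98 for Tmem119 with Olfml3 and 0.97 for P2ry12 with Siglech, but 0.02 for Gpr34 with Siglech. The libraries share their group and depth in every pair, and no test was made. In mCherry 1, Gpr34 lay 0.66 and Cx3cr1 0.26 above their own means over the 6 libraries on the log2 scale. There P2ry12 lay 0.36, Siglech 0.35 and Tmem119 0.27 below theirs. P2ry12, Siglech and Tmem119 lay below their own means in mCherry 2 and 3 too, Tmem119 at -0.25 and -0.31. The ratio of P2ry12 to Cx3cr1 was 0.819, 0.713 and 0.690 in hND6 1 to 3, against 0.457, 0.823 and 0.835 in mCherry 1 to 3. The ratio of Tmem119 to Gpr34 was 2.73, 2.90 and 4.24 in hND6 1 to 3, against 1.48, 3.46 and 3.66 in mCherry 1 to 3. In both ratios, chosen after the values were seen, mCherry 1 was the lowest library. Without mCherry 1 the groups did not overlap for 8 of the 9 members, Cx3cr1 and Gpr34 included, beside 18.9% of all tested genes.

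**Figure D3:**
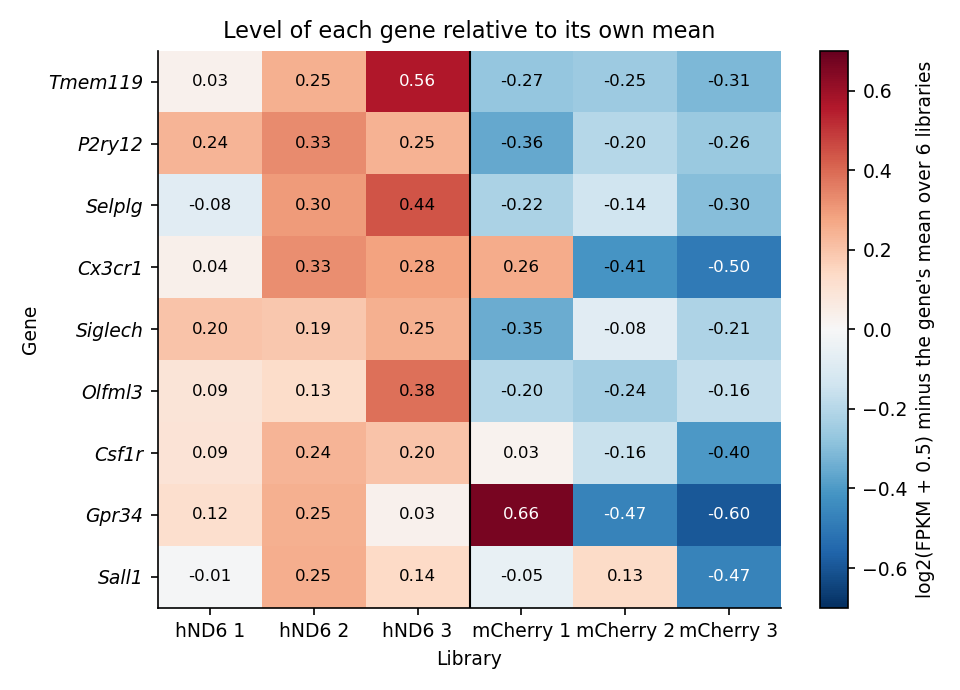
Each cell gives log2(FPKM + 0.5) of 1 gene in 1 library minus the mean of that gene over the 6 libraries; hND6 libraries stand left of the line and mCherry libraries right of it. The mCherry 1 column holds the highest value of Gpr34 (0.66) and a raised Cx3cr1 (0.26) beside low P2ry12 (-0.36) and Siglech (-0.35).

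The library mCherry 1 also carried high levels of disease-associated microglia genes. Of that list's 19 genes 15 were highest in mCherry 1, beside 18.2% of all tested genes. Other myeloid lists had many such genes too, with 16 of 29 other microglia genes, 7 of 11 receptors and transcription factors and 6 of 14 border macrophage genes highest there, against 1 of the 9 members. Cst7, an inhibitor of lysosomal cathepsins, stood at 2.70, 1.44 and 5.36 FPKM in hND6 1 to 3, against 15.8, 0.642 and 1.70 FPKM in mCherry 1 to 3. Itgax, the integrin CD11c, stood at 0.953, 1.47 and 2.26 FPKM in hND6 1 to 3, against 8.33, 0.880 and 0.999 FPKM in mCherry 1 to 3. Spp1, the secreted protein osteopontin, stood at 21.6, 16.4 and 19.5 FPKM in hND6 1 to 3, against 68.7, 6.43 and 8.10 FPKM in mCherry 1 to 3. For each of the 3, chosen after their values were seen, mCherry 1 exceeded every other library several times over. Relative to each gene's own mean on the log2 scale, the median of the 19 genes was -0.07, 0.02 and 0.27 in hND6 1 to 3, against 0.55, -0.41 and -0.44 in mCherry 1 to 3. The same measure for the 9 members was 0.09, 0.25 and 0.25 in hND6 1 to 3, against -0.20, -0.20 and -0.31 in mCherry 1 to 3. The disease-associated genes had their highest and their lowest medians within mCherry, whereas the homeostatic genes had all 3 mCherry medians below all 3 hND6 medians.

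**Figure D4:**
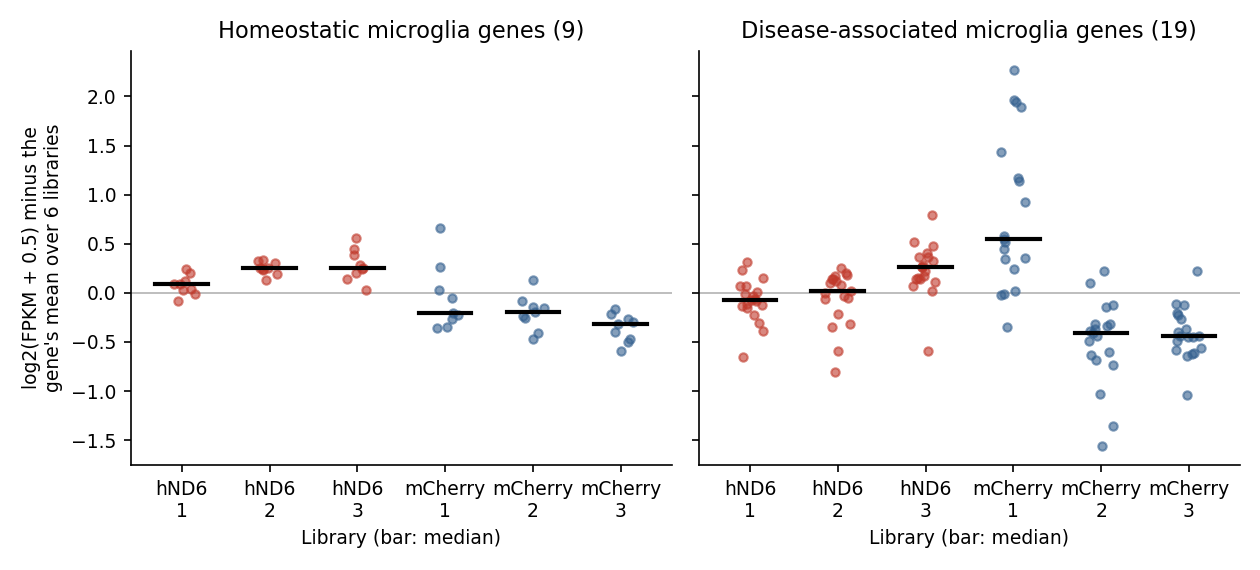
Points are genes and bars their median: log2(FPKM + 0.5) in each library minus the mean of the gene over the 6 libraries, for the 9 homeostatic (left) and 19 disease-associated (right) microglia genes. The disease-associated genes have their highest median, 0.55, in mCherry 1, where the homeostatic median is -0.20. In mCherry 2 and 3 the disease-associated medians are -0.41 and -0.44, and the homeostatic medians are likewise low, -0.20 and -0.31.

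None of the 19 disease-associated genes passed in limma in either direction. At an unadjusted p under 0.05 lay 1 of the 19, beside 9.11% of all tested genes as higher and 6.05% as lower. Of the 19, 12 averaged higher in hND6 and 7 lower, with a median log2 fold change of 0.21. Csf1 stands in this list and among the ligands, and Tgfbr1 in 2 lists as well. The 3 most abundant were Apoe, a lipid carrier (1537 ± 106 FPKM in hND6 libraries, against 1259 ± 425 FPKM in mCherry libraries), Cd9, a tetraspanin (179 ± 28.0 FPKM in hND6 libraries, against 142 ± 20.6 FPKM in mCherry libraries), and Ank, a pyrophosphate transporter (145 ± 8.19 FPKM in hND6 libraries, against 152 ± 18.7 FPKM in mCherry libraries).

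Of 30 other microglia genes 28 were tested. None passed, and 2 lay under the unadjusted level, beside 9.11% of all tested genes as higher and 6.05% as lower. Of the 28, 21 averaged higher and 7 lower, and the median log2 fold change was 0.26. For 2 of the 28 every hND6 library lay above every mCherry library, beside 12.6% of all tested genes. They were Rnase4, a secreted ribonuclease (log2 fold change 0.39 ± 0.08 SE, limma adjusted p = 0.170), and P2ry13, an ADP receptor beside P2ry12 (0.62 ± 0.21 SE, limma adjusted p = 0.268), both chosen after their values were seen. Among the most abundant of them the groups overlapped for Ctss and C1qa. Ctss, the lysosomal protease cathepsin S, stood at 205, 222 and 264 FPKM in hND6 1 to 3, against 259, 120 and 142 FPKM in mCherry 1 to 3. C1qa, a chain of complement C1q, averaged 141 ± 30.9 FPKM in hND6 libraries, against 110 ± 63.8 FPKM in mCherry libraries (SD, n = 3 each). Adora3 was listed at 0 in all 6 libraries, and Itgam did not exceed 0.0913 FPKM, values that are not read as absence of the transcripts.

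For the signals that act on the members no difference was resolved. Of the 8 ligand and niche genes none passed in limma and none lay under the unadjusted level, with 5 averaging higher and 3 lower in hND6 and a median log2 fold change of 0.07. The CSF1R ligand Csf1 stood at 58.2 ± 6.49 FPKM in hND6 libraries, against 56.4 ± 13.3 FPKM in mCherry libraries, and the other CSF1R ligand Il34 at 18.8 ± 1.03 FPKM in hND6 libraries, against 20.3 ± 2.02 FPKM in mCherry libraries (SD, n = 3 each). Cx3cl1, the fractalkine that binds CX3CR1, stood at 21.9, 12.6 and 12.96 FPKM in hND6 1 to 3, against 12.4, 7.61 and 43.9 FPKM in mCherry 1 to 3. The highest value was in mCherry 3, the library in which the forebrain neuron genes also summed highest. The TGF-beta ligands had log2 fold changes of 0.15 ± 0.17 for Tgfb1, 0.07 ± 0.13 for Tgfb2 and 0.36 ± 0.24 for Tgfb3 (SE). Cd200 and Cd47, which restrain microglia through receptors of their own, had -0.06 ± 0.18 and 0.07 ± 0.10.

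Of 12 receptor and transcription factor genes of microglia 11 were tested and none passed in limma. Under the unadjusted level lay 1, beside 9.11% of all tested genes as higher and 6.05% as lower. Of the 11, 6 averaged higher and 5 lower with a median of 0.08. Spi1, which encodes PU.1, stood at 7.64, 8.38 and 8.77 FPKM in hND6 1 to 3, against 8.92, 6.81 and 6.52 FPKM in mCherry 1 to 3, and the groups overlapped. Its log2 fold change was 0.16 ± 0.14 (SE; limma adjusted p = 0.634). Cebpb, a factor of inflammatory gene expression, was the gene under the unadjusted level, with 0.63 ± 0.23 (SE; limma adjusted p = 0.284) and no overlap. The TGF-beta receptor genes Tgfbr1 and Tgfbr2 had -0.19 ± 0.26 and 0.08 ± 0.15, Smad3 -0.18 ± 0.10, and Mef2a, a factor of the microglial program, -0.23 ± 0.11. Runx1, a factor of myeloid cells, had -0.41 ± 0.27, and Irf5, an interferon regulatory factor, 0.24 ± 0.29. Mef2c had -0.44 ± 0.58 and was highest in mCherry 3, at 30.6 FPKM. Irf8 was listed at 0 in all 6 libraries.

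**Figure D5:**
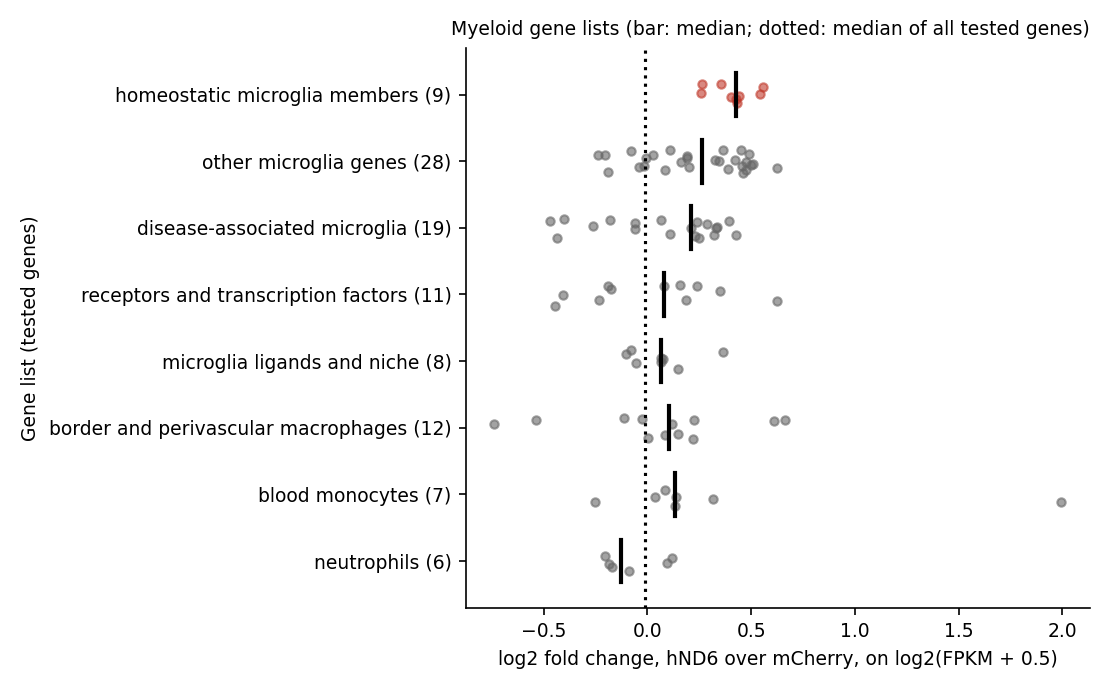
Log2 fold change of hND6 over mCherry for each tested gene of 8 lists, with the median of each list (bar) and of all tested genes (dotted, -0.01); numbers in brackets are tested genes. Medians run from 0.43 for the 9 homeostatic genes and 0.26 for other microglia genes to 0.07 for ligands and -0.13 for neutrophil genes.

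Markers of cells that could share or accompany these transcripts differed in places. Border macrophage genes had 12 of 14 tested, none passing (1 unadjusted), a median of 0.10 and a summed level of 28.3 to 37.9 FPKM in hND6, against 24.7 to 45.5 FPKM in mCherry. F13a1, the most abundant of them, averaged 5.79 ± 1.64 FPKM in hND6 libraries, against 5.92 ± 1.75 FPKM in mCherry libraries. Blood monocyte genes had 7 of 10 tested, none passing (1 unadjusted), with a median of 0.13. The 10 genes summed to 23.8 to 30.4 FPKM in hND6, against 21.0 to 25.4 FPKM in mCherry. Ly6c1 and Vcan made up most of the sum in every library, and 5 of the 10 genes averaged under 1 FPKM. The blood monocyte sums therefore do not describe that list as a whole. The gene of that list under the unadjusted level was Ly6c2, a surface antigen of inflammatory monocytes, at 2.34, 2.52 and 6.04 FPKM in hND6 1 to 3, against 0.481, 0.147 and 0.899 FPKM in mCherry 1 to 3. Its groups did not overlap, and its log2 fold change was 1.99 ± 0.42 (SE; limma adjusted p = 0.172). Ccr2, a receptor of inflammatory monocytes, was low in both groups (named after its values were seen; 0.651 ± 0.0517 FPKM in hND6 libraries, against 0.628 ± 0.145 FPKM in mCherry libraries). Neutrophil genes summed to 6.03 to 29.7 FPKM in hND6, against 11.97 to 20.8 FPKM in mCherry. Erythroid genes, led by Hbb-bs, summed to 1390 to 2624 FPKM in hND6, against 192 to 489 FPKM in mCherry, with none of the 7 tested passing and 6 under the unadjusted level. Of the lymphocyte list 5 of 11 genes were tested, and the 2 that passed as higher were Jchain and Igha, both of which would have missed the filter on their mCherry level alone. The list summed to 30.6 to 65.8 FPKM in hND6, against 2.02 to 6.46 FPKM in mCherry, and Jchain and Igha made up most of the hND6 sums. Jchain averaged 25.4 FPKM in hND6 and 0.253 FPKM in mCherry, and Igha 16.6 and 0.335 FPKM. For the other tested genes of the list, Cd3e, Cd3g and Nkg7, the groups overlapped, with log2 fold changes of -0.21, 0.01 and 0.42. The sums therefore do not describe the list as a whole. The part of blood or lymphoid cells in the levels of Selplg, Siglech and the other members was not tested. Of other glial genes, the 8 astrocyte genes had a median of 0.27 with 5 showing no overlap, and the 8 oligodendrocyte genes a median of 0.29 with 1, beside the 12.6% of all tested genes given above. None of either list passed (4 and 1 unadjusted). Beside the unadjusted counts of all these lists, 9.11% of all tested genes were higher and 6.05% lower at that level. Without mCherry 3 the median of the 9 members was 0.40.

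Genes whose pattern over the 6 libraries was most like the members' mean were looked for among 9602 protein-coding genes of at least 5 FPKM. The 5 nearest were Cat (catalase), Rhoa (a small GTPase), Mcm4 (a DNA replication helicase subunit), Adipor1 (an adiponectin receptor) and Vcp (an ATPase of protein quality control), with likeness measured as Pearson r, 0.997 for Vcp to 0.998 for Cat, over 6 libraries. Cat stood at 30.6, 33.4 and 35.1 FPKM in hND6 1 to 3, against 27.6, 26.2 and 23.6 FPKM in mCherry 1 to 3, in the same order of libraries as the members' mean. An r above 0.9 was reached by 505 of the genes compared (5.26%), and the likeness is a description over few libraries that share their groups.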

How the data were processed

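Libraries of mouse optic nerve RNA (3 hND6, 3 mCherry) were grouped by their titles. The deposited values are FPKM per gene, per the labels, and the tools STAR, HTSeq, Trim Galore and CASAVA 1.4 and the builds GRCm38 and mm10 are named, without roles, per the submitters' processing notes. Each single-library table equalled the combined table. Multiplied by exon length, FPKM fell on whole multiples of 1 step per library for at least 99.99% of values (within 0.1 read), which gave the reads per gene. Genes averaging at least 0.5 FPKM (16157) were tested on log2(FPKM + 0.5) with limma 3.58.1 in R 4.3.3 (intensity trend, two-sided, Benjamini-Hochberg over all tested genes, threshold 0.05); the scale understates changes of low genes. The fit was tested on simulated data with larger changes than those of the members and no outlying library. Differences of the members' size were not covered by it. Alternatives changed pseudocount, filter, scaling, variance model, sex, gene span, replicate number and libraries. Members, lists, motifs and rules were chosen with earlier results of these data known. All members, the 3 most abundant genes of each list and any ligand, receptor or transcription factor could be named; others are stated as chosen afterwards. Some genes that this rule covers are not reported here. Promoter windows came from RefSeq (GRCm38.p6). Where a symbol had more than 1 entry, that of highest level was used.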

Additional observations from a re-analysis of the deposited data

How the results depend on the processing

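All 9 members kept a log2 fold change above 0 under 22 alternatives, except Gpr34 at -0.024 with mCherry 3 and hND6 2 left out, and none passed the adjusted threshold in any (lowest limma adjusted p = 0.057, P2ry12 without mCherry 3; range for P2ry12 0.057 to 0.587). The members' median was 0.28 with libraries scaled to a constant sum (TPM scale), which moved the median of all genes to -0.14, so relative to all genes it stayed at 0.43; with each library left out it ran from 0.34 to 0.46. Between 6 and 8 members showed no overlap with each library left out, beside 15.1% to 19.9% of all tested genes, a check chosen after the data were seen. The 7 genes passing as higher became 1 with no filter, 0 with voom on recovered reads, 4 with sex as a covariate, 0 and 1 with mCherry 3 left out together with hND6 2 or hND6 1, and 0 to 116 with each library left out; the 0 passing as lower became 1 with the gene span trend removed and 0 to 15 with each library left out. The cause was not tested. With the replicate number as a block 0 genes passed as higher. Same-numbered libraries had correlations of deviations from their group means of -0.42, 0.36 and -0.20. Such deviations cancel within a group of 3, so these values cannot decide whether the numbers pair the libraries. edgeR and DESeq2 on recovered reads were listed beforehand and not run, because the deposited unit is FPKM. With 3 libraries a group, differences of this size are not resolved after adjustment over all genes.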
